A study of Manihot esculenta with 4 samples.

Results

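KU50 is a cultivar of cassava, Manihot esculenta, a starchy root crop of the tropics, and its leaf was sequenced once under drought stress and once under normal conditions. The comparison takes every gene whose 2 libraries averaged 1 FPKM or more, which left 19937 genes of the 26487 listed in at least 1 KU50 library and the 27146 listed in any of the 4 libraries of the series. FPKM correct fragment numbers for transcript length and library size, so levels can be set side by side between genes. The other 2 libraries are leaves of the cultivar Xinxuan048 under drought and under normal conditions. Genotype beyond the cultivar, age, the duration and strength of the drought and how many plants went into each library are not given in the sources used here. All 4 are leaf samples, and the question of the series is the transcriptional response of the leaf to drought.

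Drought reaches a leaf first as a fall in water supply. Plants answer with abscisic acid, a hormone that closes the stomata, and closed stomata cut both water loss and the supply of carbon dioxide. In leaves of many plants, transcripts of photosynthesis and growth are lowered under such conditions while those of protective proteins and of hormone signalling are raised. Cassava is known for closing its stomata early and for shedding older leaves. Which of these functions the genes below serve cannot be said, because the files give each gene a locus tag without a name or description, and 0 of the 27146 tags were found among 34312 cassava genes of RefSeq. For the same reason the leaf label was not checked against marker genes, and no sequences are shown.

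With 1 library on each side there is no spread between plants to set a difference against. Sizes are therefore described, and no difference between drought and control in KU50 carries a test. The number of fragments behind each library is unknown, and the build behind the printed positions is not given in the sources used here. KU50 drought listed 25336 genes with a total of 611226 FPKM, and KU50 control listed 25296 genes with a total of 636034 FPKM. The kept genes held 99.6% of the FPKM of the drought library and 99.7% of that of the control library. Of the kept genes 19787 were listed in both libraries, and a gene missing from a file was taken as 0 and is called unlisted. The lowest mean inside the limit was 1.0003 FPKM and the highest outside it was 0.999 FPKM.

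In the FPKM as deposited most KU50 genes were somewhat higher under drought, and past 8-fold and 16-fold about as many genes were higher as lower. In whole leaves, fewer cells of a type and less RNA per cell cannot be told apart. The log2 ratio of FPKM + 1, drought over control, had a median of 0.30, and 14006 of 19937 genes (70.3%) were above 0. The middle of the distribution was narrow. The 25th percentile was -0.10 and the 75th was 0.65, the 5th and 95th were -1.12 and 1.38, and the ends lay at -7.06 and 6.90. At least 2-fold higher under drought on this scale were 2229 genes, 11.2% of those kept, and at least 2-fold lower were 1181, or 5.92%. The upper group had a median of 10.3 FPKM in drought and 2.93 FPKM in control. The lower group had a median of 3.32 FPKM in drought and 13.5 FPKM in control.

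The excess of higher genes was confined to moderate sizes in the FPKM as deposited. At 4-fold the counts were 372 higher and 289 lower, 1.87% and 1.45% of the kept genes. At 8-fold they were 88 and 84, at 16-fold 32 and 34, and at 32-fold 8 and 15. The share of genes that was higher, among those past the threshold, thus went down step by step with size, starting at 65.4% for 2-fold and ending at 34.8% for 32-fold. The 2-fold line cut through a dense region. Between 0.9 and 1.0 lay 555 genes, just outside, and between 1.0 and 1.1 lay 452, just inside. On the lower side the like counts were 149 outside and 167 inside.

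The split between higher and lower depends on how the libraries are scaled to each other. FPKM as deposited gave 65.4% higher among genes at least 2-fold apart, totals scaled to a common value 69.4%, upper-quartile scaling 45.1% and TMM, a trimmed mean of ratios, 40.5%. The median ratio of all genes was 0.30 as deposited and -0.01 under TMM. Relative to the median of the deposited ratios, 1154 genes lay 2-fold or more above it and 1814 lay 2-fold or more below it. All 661 genes that were at least 4-fold apart as deposited kept their sign under each of these scalings. This was fixed in advance, because each scaling multiplies a library by a constant and moved the ratios by far less than 4-fold. The counts past each size did not keep their balance. Under TMM they were 268 higher and 408 lower at 4-fold, 70 and 111 at 8-fold, 25 and 45 at 16-fold, and 5 and 20 at 32-fold.

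**Figure D1:**
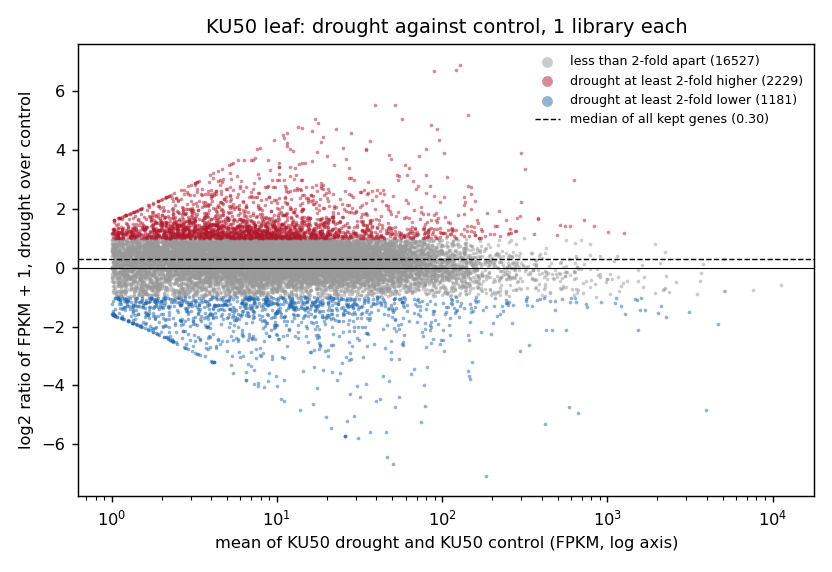
Log2 ratio of FPKM + 1 in KU50, drought over control, against the mean of both libraries in FPKM on a log axis; each point is 1 of 19937 genes and the dashed line is their median of 0.30. Red points are the 2229 genes at least 2-fold higher under drought on this scale, and blue points are the 1181 genes at least 2-fold lower. The cloud bends below 0 at the most abundant genes.

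Direction went with abundance. Genes with a mean between 3 and 10 FPKM had the highest median ratio, 0.37 over 6247 genes. The 6641 genes between 10 and 30 FPKM had a median of 0.32. The 668 genes between 100 and 300 FPKM stood at 0.00, the 161 genes between 300 and 1000 FPKM at -0.22, and the 52 genes above 1000 FPKM at -0.70. Among those 52 genes, 42 were lower under drought, 16 of them at least 2-fold, against 2 that were at least 2-fold higher. Other scalings moved all classes together and kept this downward course above 10 FPKM. Under TMM the class from 3 to 10 FPKM had a median of 0.08, that from 10 to 30 FPKM one of -0.01, and the 52 most abundant genes one of -1.05 with 47 of them lower. Their share of the FPKM of kept genes was 15.8% in drought and 24.2% in control. The gain as deposited lay in the middle of the range. It came to 21963 FPKM in the class from 10 to 30 and 14791 FPKM in the class from 30 to 100, drought minus control, while the 52 most abundant genes together had 57711.5 FPKM less in drought than in control.

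The leaf transcriptome of KU50 was spread over more genes under drought. The 10 most abundant genes held 7.11% of the FPKM in drought and 10.9% in control, each library ranked on its own. The 100 most abundant held 21.6% in drought and 30.8% in control, and the 1000 most abundant 48.2% in drought and 57.6% in control. To reach 50% of the FPKM took 1120 genes in drought and 564 in control. The 100 leading genes of drought and of control had 74 in common. Of the 100 leading genes of control 88 were lower under drought, a direction that choosing them by their control level favours. Of the 100 leading genes of drought, where the choice favours the opposite, 63 were still lower in drought than in control and 37 were higher. The 26 genes new to the leading 100 under drought had ranked between 102 and 2778 in control, with a median of 150. The 26 that dropped out ranked between 101 and 6363 in drought, with a median of 144.

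**Figure D2:**
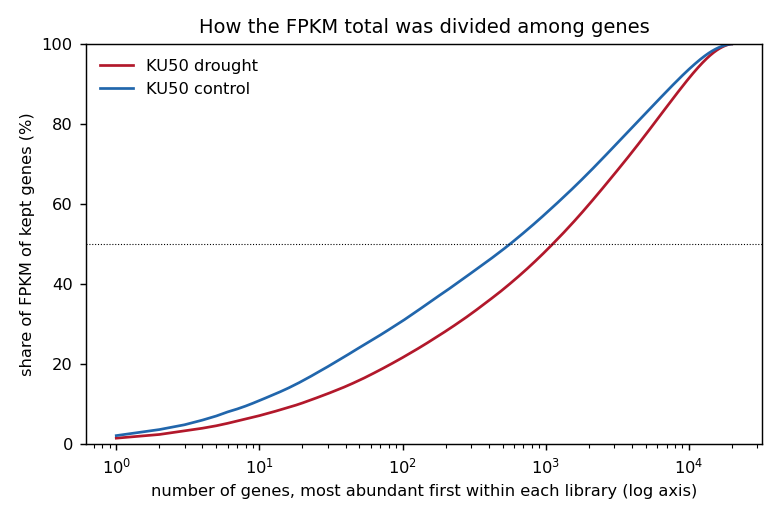
Share of the FPKM of kept genes, in percent, against the number of genes on a log axis, the most abundant first within each library. The drought curve runs below the control curve and crosses 50% at 1120 genes, where control crosses it at 564.

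Losses were concentrated and gains were spread. Summed over genes, 122977 FPKM were gained under drought by 14006 genes and 148237 FPKM were lost by 5931 genes. FPKM are relative, so gain and loss here describe how the measured total was divided among genes and not amounts of transcript. It took 903 genes to make up 50% of the gain and 57 genes to make up 50% of the loss. Under TMM these numbers were 467 for the gain and 101 for the loss, and the gaining genes were 9876 and the losing ones 10061. The 10 largest losses made 24.4% of all loss, and the 10 largest gains made 6.61% of all gain. The median gain of a gaining gene was 3.54 FPKM and the median loss of a losing gene was 3.03 FPKM.

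The 3 largest losses were 7357, 5427 and 4457 FPKM, and the third was that of the most abundant gene of both libraries, with 9028 FPKM in drought and 13485 FPKM in control. The first 2 belonged to the following genes. MANES_04G078000 (chromosome 4, 21627913 to 21628905) stood at 267 FPKM in KU50 drought and 7624 FPKM in KU50 control. It ranked 239th in drought and 3rd in control, a log2 ratio of -4.83, and its loss of 7357 FPKM was 4.96% of all loss. In Xinxuan048 the gene had 1302 FPKM in drought and 8076 FPKM in control, so both cultivars were high in control leaves and lower in drought leaves. MANES_16G123200 (chromosome 16, 27497026 to 27497734) stood at 1950 FPKM in KU50 drought and 7377 FPKM in KU50 control, a log2 ratio of -1.92. The same gene had 2747 FPKM in Xinxuan048 drought and 7081 FPKM in Xinxuan048 control. Together these genes made 8.62% of all loss in KU50.

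The largest gains were small beside this and came from genes that were abundant already. MANES_13G029000 (chromosome 13, 2755754 to 2762404) stood at 2467 FPKM in KU50 drought and 1429 FPKM in KU50 control, a gain of 1039 FPKM at a log2 ratio of 0.79. In Xinxuan048 it had 2141 FPKM in drought and 1727 FPKM in control. MANES_04G083800 (chromosome 4, 22107965 to 22110212) stood at 5569 FPKM in KU50 drought and 4578 FPKM in KU50 control. Its log2 ratio was 0.28 as deposited and -0.07 under TMM, and in Xinxuan048 it was -0.49, so its direction is not settled by these libraries.

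In ratio rather than amount, the extremes were genes near silence in 1 of the KU50 libraries. MANES_01G042200 (chromosome 1, 6892756 to 6893838) stood at 255 FPKM in KU50 drought and 1.15 FPKM in KU50 control, a log2 ratio of 6.90. In Xinxuan048 it was high in both libraries, with 65.9 FPKM in drought and 161 FPKM in control. MANES_03G197100 (chromosome 3, 27961109 to 27962074) stood at 241 FPKM in KU50 drought and 1.33 FPKM in KU50 control, a log2 ratio of 6.70. Its Xinxuan048 levels were 2013 FPKM in drought and 104 FPKM in control, higher under drought in both cultivars from different starting points. At the other end, MANES_08G054400 (chromosome 8, 5483137 to 5484517) stood at 1.75 FPKM in KU50 drought and 366 FPKM in KU50 control, a log2 ratio of -7.06. In Xinxuan048 the order was the opposite, with 49.6 FPKM in drought and 0.995 FPKM in control.

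Some genes were switched on or off within KU50. Taking below 0.5 FPKM as off and at least 5 FPKM as on, 66 genes (0.331% of those kept) were on in drought and off in control, and 64 genes (0.321%) were off in drought and on in control. Under TMM these counts were 53 switched on and 83 switched off. Where they were on, both lists as deposited had medians somewhat below those of all kept genes, which were 11.6 FPKM in drought and 9.17 FPKM in control. The genes switched on had between 5.01 and 35.1 FPKM in drought, with a median of 8.36, against a median of 0.158 FPKM in control. The genes switched off had a median of 0.0835 FPKM in drought, against levels between 5.01 and 101 FPKM in control with a median of 8.23. In the library where they were on, the first list held 0.126% of the FPKM and the second 0.173%. Of the genes switched on 22 were unlisted in control, and of those switched off 28 were unlisted in drought. The limits cut a continuous range. In the genes below 0.5 FPKM in the other library, 26 with 4 to 5 FPKM in drought fell just outside the first list and 10 with 5 to 6 FPKM just inside; the like counts for control were 24 outside and 12 inside the second.

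The genes highest among those switched on were MANES_08G019800 and MANES_06G147200. MANES_08G019800 (chromosome 8, 1838589 to 1839213) stood at 35.1 FPKM in KU50 drought and 0.184 FPKM in KU50 control, while Xinxuan048 had 6.68 FPKM in drought and 5.03 FPKM in control. MANES_06G147200 (chromosome 6, 25029068 to 25031511) stood at 33.8 FPKM in KU50 drought and 0.0502 FPKM in KU50 control. In Xinxuan048 it had 19.4 FPKM in drought and was unlisted in control, the same switch as in KU50. Among the genes switched off, MANES_15G008400 (chromosome 15, 792220 to 793130) was unlisted in KU50 drought and had 101 FPKM in KU50 control. MANES_07G050400 (chromosome 7, 5233947 to 5234589) stood at 0.0831 FPKM in KU50 drought and 92.2 FPKM in KU50 control. Both were on in Xinxuan048 drought, with 51.5 and 55.1 FPKM, and near silent in Xinxuan048 control, where the first had 0.336 FPKM and the second was unlisted.

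**Figure D3:**
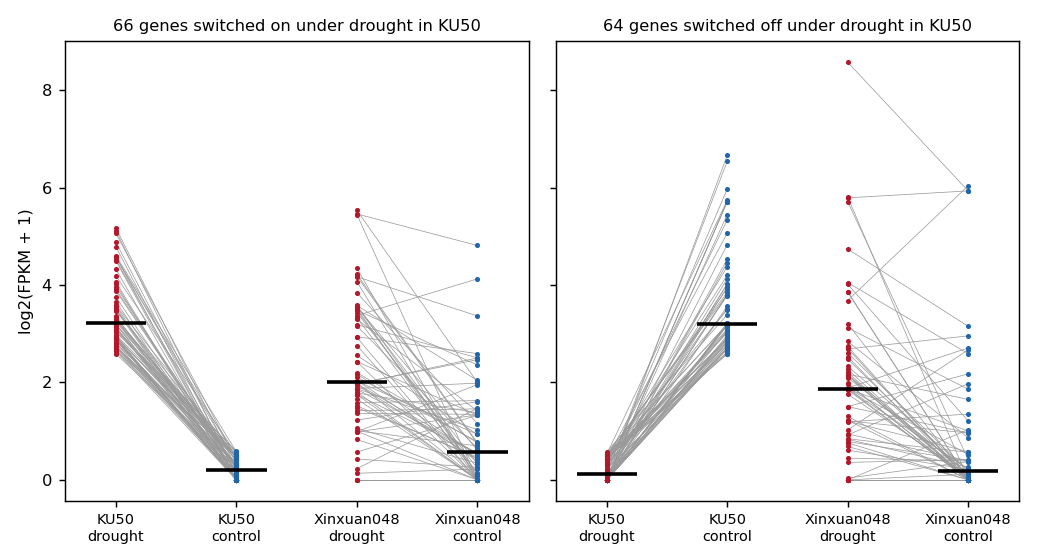
Levels as log2(FPKM + 1) in the 4 libraries of the 66 genes switched on under drought in KU50 (left) and the 64 switched off (right). Each point is a gene, grey lines join a gene's drought and control values within a cultivar, and black bars are medians; the KU50 columns show the choice of the genes, and in Xinxuan048 the drought median lies above the control median in both panels.

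In Xinxuan048, whose libraries took no part in the choice, both lists were more often higher under drought than lower. Of the genes switched on in KU50, 38 of 66 (57.6%) were at least 2-fold higher in Xinxuan048 drought and 1 was at least 2-fold lower. Of the genes switched off in KU50, 32 of 64 (50%) were at least 2-fold higher in Xinxuan048 drought and 4 were at least 2-fold lower. Over all 19937 genes the shares in Xinxuan048 were 10.3% higher and 2.4% lower. Loci under 500 bases made 24.2% of the genes switched on and 17.2% of those switched off, against 2.43% of all kept genes. The Xinxuan048 shares over genes of like span were not computed. By the same limits of 0.5 and 5 FPKM, 11 of the 66 genes switched on in KU50 were also switched on in Xinxuan048, where 0.246% of all kept genes were. Of the 64 switched off in KU50, 8 were switched on in Xinxuan048 and 0 were switched off there. In all, 1 of the 19937 genes (0.00502%) was switched off in Xinxuan048. Median levels of the genes switched off in KU50 were 2.66 FPKM in Xinxuan048 drought and 0.133 FPKM in Xinxuan048 control.

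Among genes higher in KU50 drought, the share at least 2-fold higher in Xinxuan048 as well grew with size up to 16-fold. That share was 41.0% of the 2229 genes past 2-fold, 58.6% of the 372 past 4-fold, 72.7% of the 88 past 8-fold and 75% of the 32 past 16-fold, where 2 genes were at least 2-fold lower. Past 32-fold it was 6 of 8 genes, again 75%, and the other 2 were at least 2-fold lower. For genes lower in KU50 drought the share at least 2-fold lower in Xinxuan048 showed no such climb past 4-fold, at 23.9% of the 1181 past 2-fold, 31.8% of the 289 past 4-fold, 31.0% of the 84 past 8-fold and 32.4% of the 34 past 16-fold. The share that was at least 2-fold higher in Xinxuan048 instead went up along the same steps, with 12.3%, 28.0%, 42.9% and 50%, against 10.3% of all kept genes. Past 32-fold lower in KU50 it was 9 of 15 genes. The median Xinxuan048 ratio of these groups went along, at -0.36 past 2-fold, 0.00 past 4-fold and 0.67 past 8-fold. TMM in both cultivars was an alternative chosen after the values were seen. At 2-fold it gave 31.3% of the higher genes as higher in Xinxuan048 and 35.1% of the lower genes as lower there. Over all kept genes as deposited, 10.3% were higher and 2.4% lower in Xinxuan048, so the shares of higher and lower genes have unlike backgrounds. The like shares over all genes under TMM were not computed. Under TMM the share of KU50's lower genes that were at least 2-fold higher in Xinxuan048 went along the steps to 16-fold as 6.6%, 18.1%, 33.3% and 44.4%. It was 45% past 32-fold. The steps are nested, so each holds the genes of the next, and none of these shares was tested.

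**Figure D4:**
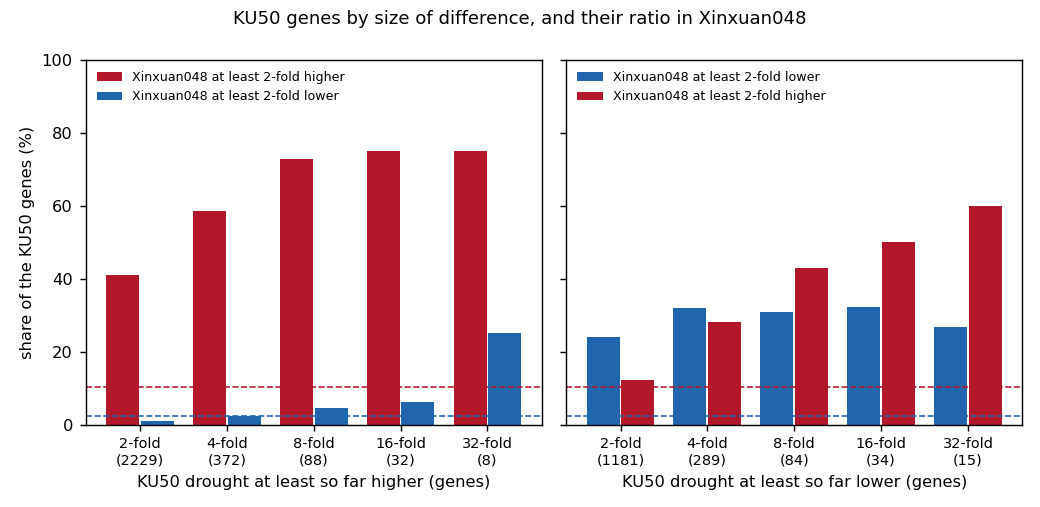
Share, in percent, of genes past each size in KU50 drought that were at least 2-fold higher (red) or lower (blue) in Xinxuan048 drought, with the number of KU50 genes in brackets; genes higher in KU50 are on the left, those lower on the right, and dashed lines give the shares over all 19937 genes, 10.3% and 2.4%. In the right panel the red bars grow with size, reaching 60.0% at 32-fold, and the blue bars stay between 23.9% and 32.4%.

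Genes of short loci were at least 2-fold apart more often than those of long loci, in both directions. The median locus span was 2791 bases for the genes at least 2-fold higher under drought, 1879 bases for those at least 2-fold lower and 3602 bases for all kept genes. The kept genes were cut into 4 classes of about equal number by span. In the class of the shortest loci, up to 2052 bases, 16.8% of 4985 genes passed 2-fold on the higher side and 13.2% on the lower side. In the class of the longest, from 5930 bases, 7.11% of 4982 genes were higher and 1.18% lower. Levels differed as well, with a median of 8.07 FPKM in the shortest class and 11.6 FPKM in the longest. The order was the same among genes with a mean of 10 to 30 FPKM, where the median levels were 16.2 FPKM in both of these classes. There 16.0% were higher and 12.7% lower among the shortest loci, against 3.78% higher and 0.737% lower among the longest. Shorter transcripts collect fewer fragments at a given FPKM. Locus span is the distance from the start to the end of the locus and is not transcript length. The part of counting error in these shares was not tested. Among the genes switched on 16 of 66 (24.2%) had loci under 500 bases, and among those switched off 11 of 64 (17.2%), against 485 of all 19937 kept genes (2.43%). Of the 64 genes switched off, 3 with loci of 150 to 362 bases had 51.6 FPKM in control, the lowest value at the loci of 150 bases, whose highest was exactly 2 times that; such a value may stand for 1 fragment.

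**Figure D5:**
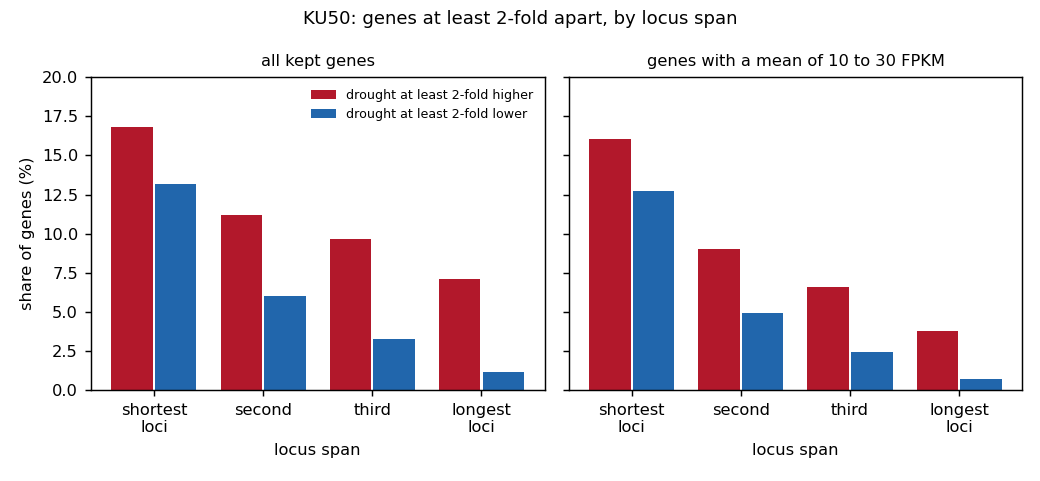
Share of KU50 genes, in percent, at least 2-fold higher (red) or lower (blue) under drought, in 4 classes of locus span, for all 19937 kept genes (left) and for those with a mean of 10 to 30 FPKM (right). In both panels the bars of both colours shorten with span; at the longest loci the red bars stand at 7.11% on the left and 3.78% on the right, and the blue bars at 1.18% and 0.737%.

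The 18 chromosomes resembled each other. Their median ratios lay between 0.26 and 0.35, the share of genes at least 2-fold higher between 9.79% on chromosome 4 and 13.3% on chromosome 10, and the share at least 2-fold lower between 4.20% on chromosome 3 and 7.96% on chromosome 11. The 479 genes on unplaced sequences had a lower median of 0.20 and a larger share at least 2-fold lower, 10.02%, with 11.7% higher. Their loci were also shorter, with a median of 2739 bases, and their median level was 6.82 FPKM. Genes switched on lay on 16 chromosomes and on unplaced sequences. The largest count on any chromosome was 10 of the 66 (15.2%) on chromosome 15, which held 6.14% of the kept genes. Chromosome 15 is named for that count. Genes switched off lay on all 18 chromosomes, and 4 of them on unplaced sequences.

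Genes past 2-fold in one direction had neighbours past 2-fold in the same direction more often than other genes did. Of the genes at least 2-fold higher 26.4% had an adjacent kept gene that was also at least 2-fold higher, against 19.8% of the genes less than 2-fold apart. For the lower genes the contrast was wider. Of these 22.0% had an adjacent gene at least 2-fold lower, against 10.5% of the genes less than 2-fold apart and 9.47% of the genes at least 2-fold higher. Unbroken runs of at least 3 kept genes numbered 51 for higher and 20 for lower. How many such runs the shares of higher and lower genes alone would give was not computed. Whether the members of a run are copies of one another is not given, and fragments shared between similar copies were not examined.

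The longest run of higher genes had 7 kept members, on chromosome 6 from 26194411 to 26395656. Their log2 ratios lay between 1.06 and 2.63, with 4.83 to 160 FPKM in KU50 drought and 1.64 to 33.2 FPKM in KU50 control. In Xinxuan048 none of the 7 reached 2-fold, with log2 ratios from 0.05 to 0.70. A run of 5 on chromosome 7, from 2521526 to 2633470, was more abundant and more even. Its genes had 25.8 to 350 FPKM in KU50 drought and 4.20 to 90.4 FPKM in KU50 control, with log2 ratios from 1.81 to 2.37. The same 5 genes had 3.09 to 37.9 FPKM in Xinxuan048 drought and 2.78 to 40.6 FPKM in Xinxuan048 control, none of them 2-fold apart. The longest run of lower genes had 6 kept members, on chromosome 6 from 11975973 to 12217015. None of them exceeded 0.645 FPKM in KU50 drought, and they had 2.06 to 8.13 FPKM in KU50 control. In Xinxuan048 all 6 were below 1 FPKM in both libraries, at most 0.906 FPKM in drought and 0.301 FPKM in control.

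Of the 11 genes named above, 3 stood beside a kept gene past 2-fold in the same direction and 8 did not. Such a neighbour was found for 26.4% of all genes at least 2-fold higher and 22.0% of those at least 2-fold lower. Those shares do not cover MANES_13G029000 and MANES_04G083800, both among the 8, whose log2 ratios of 0.79 and 0.28 were not past 2-fold. MANES_03G197100, at a log2 ratio of 6.70, had neighbours at -0.05 and -0.25, and MANES_08G054400, at -7.06, had neighbours at 0.60 and 0.75. MANES_01G042200 had a neighbour at 1.21 on one side and at -1.24 on the other. MANES_15G008400 lay in a run of 4 kept genes, from 765088 to 803137 on chromosome 15, with log2 ratios between -6.67 and -2.36. The kept genes on either side of it had 13.4 and 2.93 FPKM in KU50 drought, against 149 and 147 FPKM in KU50 control in the same order. In Xinxuan048 this run was mixed, with 2 genes past 2-fold on the higher side and 1 on the lower side. The kept gene before MANES_07G050400 was unlisted in KU50 drought and had 27.4 FPKM in KU50 control. Both of that pair were at least 2-fold higher in Xinxuan048 drought and unlisted in Xinxuan048 control. Of the genes switched off 23 of 64 (35.9%) stood beside a gene at least 2-fold lower, against 22.0% of all genes at least 2-fold lower. Of those switched on 25 of 66 (37.9%) stood beside a gene at least 2-fold higher, against 26.4% of all genes at least 2-fold higher.

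Genes found in only 1 of the KU50 libraries were mostly of low level. Listed only in drought were 1191 genes with a median of 0.187 FPKM, and listed only in control were 1151 with a median of 0.179 FPKM. At least 5 FPKM was reached by 22 of the genes listed only in drought, at most 26.6 FPKM, and by 28 of those listed only in control, at most 101 FPKM. Of those 22 genes 13 had loci under 500 bases, and of the 28 genes 10 did.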

How the data were processed

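The authors deposited 1 FPKM value per gene and library, per the file headers. A spliced aligner, TopHat2 2.0.12, and a program that quantifies transcripts, Cufflinks, are named in the submitters' processing notes without role or settings; build and annotation are not given in the sources used here. Libraries were matched by locus tag. An absent gene counted as 0, and no file lists a value of 0. Starts were counted from 0 in the files and are printed counted from 1: so read, 308 of 354 loci under 300 bases span a multiple of 3, against 20 otherwise. The position of 1 locus, damaged in 1 library, was taken from another library, and chromosome numbers come from the tags.

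Genes were kept where the 2 KU50 libraries averaged 1 FPKM or more, and ratios are of log2(FPKM + 1), which understates low genes. No test was made with 1 library per group, and depth is unknown. Named tags are at most 2 in each direction by log2 ratio, by FPKM difference and by level among switched genes, at loci of at least 500 bases, the first among genes listed in both KU50 libraries with at least 5 FPKM in 1 of them. Gene lists by function could not be applied. The genes, limits and lists were chosen with earlier results of these data known. Alternatives were scalings, pseudocounts, filters and limits. The scaling code was tested on simulated data. Python 3.11.15, pandas 2.3.3 and matplotlib 3.10.9 were used.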

Additional observations from a re-analysis of the deposited data

Results flagged for a closer look

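Opposite directions under drought in the cultivars drew attention to 5 named genes and to 1 list. Each direction rests on 1 pair of libraries, and none of the differences between cultivars was tested. The log2 ratio of Xinxuan048 minus that of KU50 was 12.24 for MANES_07G050400, 11.96 for MANES_15G008400 and 11.73 for MANES_08G054400, all with less in drought than in control in KU50 and the opposite order in Xinxuan048. It was -8.18 for MANES_01G042200, which was higher in KU50 and lower in Xinxuan048. For MANES_04G083800 it was -0.77, with a sign in KU50 that turned under TMM scaling. The 64 genes switched off in KU50 had a median of -3.18 in KU50, against 1.04 in Xinxuan048, a difference of 4.22. The KU50 side of that median follows from the choice of the genes.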

How the results depend on the processing

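The KU50 median log2 ratio, 0.30 as reported, turned to -0.0061 under TMM; it was 0.35 with totals scaled to a common value, 0.054 with upper-quartile scaling, 0.34 with a pseudocount of 0.1, 0.21 with 5, 0.22 without a filter and 0.29 at a mean of at least 5 FPKM. The 2229 genes at least 2-fold higher became 1357 with upper-quartile scaling and 1227 with TMM, and the 1181 lower became 1802 with TMM. A pseudocount of 5 gave 772 higher and 569 lower, a mean of at least 5 FPKM 1324 and 752, and 4-fold 372 and 289. Genes switched on and off, 66 and 64, were 139 and 101 with off below 1 FPKM, 26 and 28 with on at 10 FPKM, and 22 and 28 when unlisted in the other library. The share of the 100 leading genes, 21.6% in drought and 30.8% in control, was 21.8% and 31.2% at loci of at least 500 bases and 21.5% and 30.7% without a filter. It was 16.0% and 24.1% for 50 genes, and 38.6% and 48.5% for 500. The other 15 of 30 alternative counts stayed within 1.5 times, among them 53 genes switched on and 83 switched off under TMM. Of the 55 alternative values of the 11 named genes 1 changed sign, MANES_04G083800 at -0.067 under TMM. These alternatives were scalings and pseudocounts. A pseudocount cannot turn a sign, and the scalings moved ratios by little beside those of most named genes. The count therefore says little about stability.

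Chosen after the data were seen, TMM in both cultivars gave 31.3% of KU50's higher genes also higher in Xinxuan048, against 41.0% as deposited. Of the lower genes 35.1% were also lower, against 23.9%, so which direction had the larger raw share reversed. Over all kept genes as deposited, 10.3% were higher and 2.4% lower in Xinxuan048, and the like shares under TMM were not computed. Some shifts between settings follow from the settings themselves. A scaling moves all ratios in the same direction, and TMM centres a trimmed mean of the ratios by construction. Stricter limits and filters leave fewer genes. Beyond that, the cause of the shifts was not tested. No paired analysis was possible because each group has 1 library; no library could be left out. Depth is unknown, so counting error at short loci and low values is not measured.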
